A study of Homo sapiens with 8 samples.

Results

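The 37 genes encoded by the human mitochondrial genome were described in A549 cells, a human lung adenocarcinoma line, treated with IFN-γ, with the kinase inhibitor AX-0085, or with both. They were chosen by name, as the genes whose symbol starts with MT-, and make up 37 of the 60664 genes in the count table. Of these, 13 encode proteins, 2 encode ribosomal RNAs (rRNAs) and 22 encode transfer RNAs (tRNAs). RNA was sequenced from 8 libraries, 2 for each of 4 groups of the same cell line, which were untreated cells, cells given IFN-γ, cells given AX-0085, and cells given IFN-γ and AX-0085. IFN-γ was used at 20 ng/mL (the sample labels state 20 ng with no volume). AX-0085 followed 24 h later, at 0.5 μM, and remained for 24 h. The question was how this inhibitor alters the response of lung adenocarcinoma cells to IFN-γ. The labels do not say whether the 2 libraries of a group came from separate cultures, so that the p-values below measure the spread between these libraries, which may be technical.

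The mitochondrial genome is a small circle that is read from both strands into long transcripts by a dedicated polymerase, POLRMT, with the factors TFAM and TFB2M. Most of its protein-coding and rRNA genes are separated by tRNA genes, and excision of the tRNAs releases the individual mRNAs and rRNAs. The proteins are core subunits of the respiratory chain and of the ATP synthase, the rRNAs and tRNAs serve their translation inside the organelle, and the remaining factors, which copy, transcribe, process and degrade this RNA, are encoded in the nucleus. Because all mRNAs of 1 strand start from shared transcripts, their unequal steady-state levels are generally set after transcription, with the nuclear protein LRPPRC stabilizing mRNAs and the PNPT1 and SUPV3L1 complex degrading RNA.

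In the reference genome (GRCh38, mitochondrial chromosome of 16569 bases), 28 of the genes lie on the plus strand of the reference, which matches the long transcript of the heavy strand, and 9 on the other, the latter being MT-ND6 and 8 tRNA genes. A few neighbours share bases. The overlap of MT-ATP8 and MT-ATP6 (chrM:8515-8584, plus strand, with 12 bases on each side of the overlap) and that of MT-ND4L and MT-ND4 (chrM:10748-10778, plus strand) are printed here because reads that lie on both genes may be given to neither. Capitals mark the bases that belong to both genes.
MT-ATP8/MT-ATP6: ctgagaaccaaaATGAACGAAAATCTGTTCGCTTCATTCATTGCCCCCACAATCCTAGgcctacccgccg
MT-ND4L/MT-ND4: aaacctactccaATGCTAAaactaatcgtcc
The first overlap has 46 bases, which is 22.2% of MT-ATP8, and the second has 7 bases, which is 2.36% of MT-ND4L. The level of MT-ATP8 relative to its length may therefore be understated. How such reads were counted is not settled by the table, in which 36.1% of 238 protein-coding genes wholly inside exons of genes on the same strand had no count in any library.

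Total counts ranged from 20672828 to 29978251 per library. All 8 libraries expressed the epithelial keratins KRT7, KRT8 and KRT18 with at least 21681 counts each, whereas the leukocyte genes PTPRC and CD3E had at most 1 count. The epithelial genes CDH1 and EPCAM were lower, at 203 to 2557 and 7 to 229 counts, and the fibroblast gene COL1A1 had 71 to 267 counts. The 2 libraries of a group differed by more than counting noise in every group, by a chi-square test over genes (8.55 to 27.7 per degree of freedom). The library kit preserved strand, but 13 of 13 protein-coding genes that lie wholly inside exons of genes on the opposite strand had no count in any library, against 20.1% of 10499 genes without such an overlap. Counting that joins reads of both strands can leave genes inside opposite-strand exons without counts, and the strand setting used is not given. How overlaps were handled is not settled, since many genes inside exons of the same strand did have counts. The counts of MT-ND6 and of the 8 light-strand tRNA genes may therefore include RNA antisense to them. Annotated nuclear copies of mitochondrial genes held few counts. The 404 annotated copies held 140 counts over all libraries, against 6650254 counts for the mitochondrial genes, and 104 of the 140 lay on MTCO1P40. This low total does not show how many reads match both places. Reads with several matches may have been left out, which would also lower the mitochondrial counts.

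Mitochondrial genes took a smaller share of the counts with IFN-γ and a larger share with AX-0085 than in untreated cells. Their share was 3.55% and 2.72% of all gene counts in the untreated libraries, 1.71% and 1.82% after IFN-γ, 4.12% and 5.73% after AX-0085, and 2.87% and 3.43% after both. The IFN-γ libraries were the lowest and the AX-0085 libraries the highest, and neither group overlapped with any other. The libraries with both agents and the untreated libraries overlapped, with means of 3.15% ± 0.398 and 3.14% ± 0.586 (SD, n = 2 each). An exact permutation test of 2 against 2 libraries cannot give a p under 0.333, so no p is given for these shares. A share of all counts moves with the nuclear genes as well. Reads from cytoplasmic rRNA varied as well. A pair of genes on chromosome 21 that span nuclear rRNA repeats took 3.65% and 5.78% of the counts in untreated cells, 5.30% and 3.12% after IFN-γ, 2.11% and 1.83% after AX-0085, and 2.62% and 5.96% after both. They were lowest in the AX-0085 libraries, with log2 fold changes of -1.25 ± 0.35 and -1.28 ± 0.35 against untreated cells (adjusted p = 0.008022 and 0.007041), where the mitochondrial share was highest. The part of this difference in the mitochondrial results was not tested. In bulk samples, fewer mitochondrial genomes and less RNA per genome cannot be told apart.

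**Figure D1:**
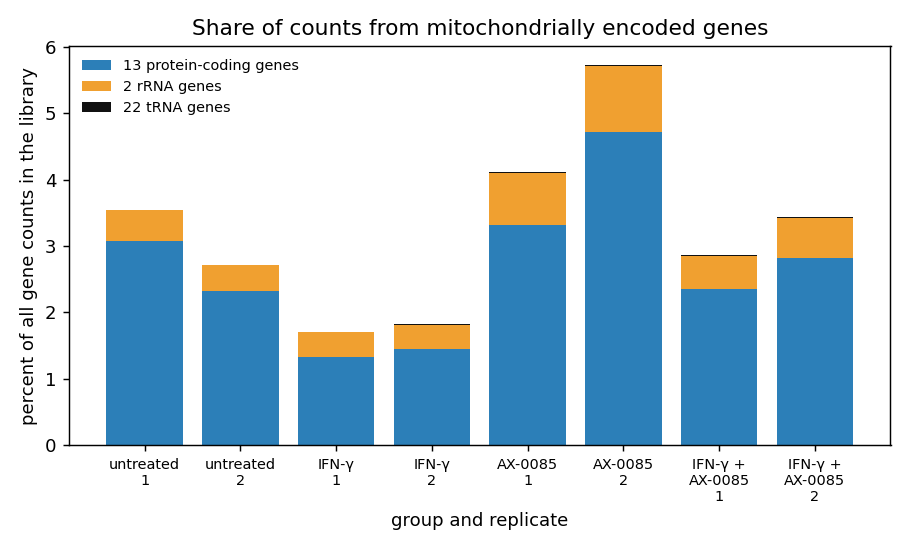
Percent of all gene counts (vertical axis) from mitochondrial protein-coding, rRNA and tRNA genes in each of the 8 libraries (bars, stacked by gene class). The IFN-γ bars reach 1.71% and 1.82% and the AX-0085 bars 4.12% and 5.73%, and the tRNA layer is too thin to read at this scale.

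The classes did not make up a constant part of this share. Protein-coding genes accounted for 3.07% and 2.33% of all counts in untreated cells and for 1.33% and 1.45% with IFN-γ. The rRNA genes accounted for 0.466% and 0.381% in untreated cells and for 0.371% and 0.367% with IFN-γ. For every 100 mRNA counts there were 15.2 and 16.3 rRNA counts in untreated cells, 27.9 and 25.3 after IFN-γ, 23.7 and 21.3 after AX-0085, and 21.4 and 21.2 after both. All treated libraries thus lay above both untreated ones in this ratio, with the IFN-γ libraries highest. This ratio is formed within a library and does not depend on the scaling between libraries. The RNA was selected by its poly(A) tail, so that counts of mRNAs, rRNAs and tRNAs cover the molecules kept by this step and not the whole pool. The part kept may differ between genes and between groups, and was not measured.

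Among the 13 mRNAs of untreated cells, the levels per length spanned a wide range. Levels are given as CPM, the counts scaled to library size with TMM factors, or as CPM per kilobase where genes are compared with each other. The catalytic subunits of cytochrome c oxidase (complex IV) led, with MT-CO2 at 5496 ± 906, MT-CO3 at 5051 ± 813 and MT-CO1 at 4835 ± 817 CPM per kilobase (SD, n = 2 here and for the levels that follow). The SDs of these 3 largely reflect a difference between the libraries that the genes share, as MT-CO2 lay above MT-CO3 and MT-CO3 above MT-CO1 in both untreated libraries (6137, 5626 and 5412 CPM per kilobase in replicate 1, and 4855, 4475 and 4257 in replicate 2). Of the 100-base stretches of MT-CO1, 27.9% also occur in the nuclear genome, against 2.39% for MT-CO2 and 4.67% for MT-CO3. If reads with several matches were dropped, MT-CO1 would be understated in both libraries, so that this order is not settled. MT-ATP6, part of the proton channel of ATP synthase (complex V), stood at 3108 ± 531 and MT-ND4, a subunit of NADH dehydrogenase (complex I), at 2460.4 ± 467 CPM per kilobase. The low end was held by MT-ND5 at 355 ± 68.1 and MT-ND6 at 258 ± 35.1 CPM per kilobase, both of complex I. MT-ND6 is the only protein-coding gene read from the other strand, and its counts may include antisense RNA. MT-RNR2, the large-subunit rRNA, stood at 2455 ± 283 and MT-RNR1, the small-subunit rRNA, at 345 ± 37.7 CPM per kilobase.

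With IFN-γ, 12 of 13 mRNAs fell relative to untreated cells (edgeR quasi-likelihood test with a p under 0.05 after Benjamini-Hochberg adjustment, called passing from here on). Over all 15066 genes tested, 36.0% passed with a lower level. The median log2 fold change of the 13 mRNAs was -0.92, against -0.06 over all genes tested. Both IFN-γ libraries lay below both untreated libraries for all 13 mRNAs, which was the case for 43.3% of all genes.

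The ATP synthase mRNAs fell most by estimate, but their order against MT-ND5 and MT-CO3 below was not tested. MT-ATP8 and MT-ATP6 share bases, as do MT-ND4L and MT-ND4, so that the genes of such a pair are not independent readings. The 13 mRNAs are counted by gene throughout. MT-ATP8, which encodes a small membrane subunit, had 367 and 309.6 CPM in untreated cells, against 128 and 162 with IFN-γ. This was a log2 fold change of -1.23 ± 0.17 (SE), or 2.34-fold lower (adjusted p = 2.043e-05). MT-ATP6 had 2373 and 1861 CPM in untreated cells, against 939 and 1014 with IFN-γ, for a log2 fold change of -1.12 ± 0.16 (adjusted p = 3.931e-05). Only MT-CO3 (-1.02 ± 0.15) and MT-ND5 (-1.04 ± 0.22) also passed the 2-fold threshold of the study, which 17.2% of all genes did with a lower level. These 4 calls at 2-fold depended on the untreated libraries, since 1 mRNA, MT-ATP8, remained without untreated replicate 1 and 8 were called without untreated replicate 2. Without replicate 1 of both agents, 2 were called.

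For cytochrome c oxidase, all 3 mRNAs fell with IFN-γ. MT-CO1, the most counted mitochondrial gene, had 8346 and 6565 CPM in untreated cells, against 4398 and 4628 with IFN-γ, for a log2 fold change of -0.72 ± 0.16. MT-CO2 changed by -0.90 ± 0.14 on the log2 scale. MT-CYB, the only mitochondrial subunit of the cytochrome bc1 complex (complex III), had 971 and 798 CPM in untreated cells, against 432 and 475 with IFN-γ, for a log2 fold change of -0.96 ± 0.15.

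The 7 complex I mRNAs spread most in their response to IFN-γ, from a log2 fold change of -1.04 for MT-ND5 to -0.30 for MT-ND1, and 6 of them passed. MT-ND1, which encodes a membrane-arm subunit, had 909 and 722 CPM in untreated cells, against 635 and 689 with IFN-γ. This difference of -0.30 ± 0.17 on the log2 scale did not pass (adjusted p = 0.1313), although the libraries did not overlap. MT-ND3 fell by 0.44 ± 0.10 on the log2 scale, from 469 and 414 CPM to 352 and 301. Larger changes were measured for MT-ND4L (-0.94 ± 0.19), MT-ND2 (-0.92 ± 0.13), MT-ND6 (-0.86 ± 0.21) and MT-ND4 (-0.76 ± 0.17).

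With AX-0085 alone, 10 of 13 mRNAs rose against untreated cells, all by under 2-fold, where 26.7% of all genes passed with a higher level. The median log2 fold change was 0.50 for the 13 mRNAs and 0.01 for all genes. All 7 complex I mRNAs and all 3 of complex IV passed. MT-CO1 rose to 10353 and 14817 CPM, for a log2 fold change of 0.76 ± 0.16 (adjusted p = 0.00143). MT-ND6 had 148 and 122 CPM in untreated cells, against 167 and 272 with AX-0085, for a log2 fold change of 0.70 ± 0.20 (adjusted p = 0.009449). MT-CYB (0.24 ± 0.15, adjusted p = 0.1844), MT-ATP6 (0.37 ± 0.16, adjusted p = 0.06902) and MT-ATP8 (0.40 ± 0.16, adjusted p = 0.05152) did not pass, and their libraries overlapped with the untreated ones. Both AX-0085 libraries lay above both untreated ones for 9 mRNAs, as they did for 38.8% of all genes.

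The rise with AX-0085 rested on single libraries. AX-0085 replicate 2 was the higher of its pair for every mRNA. Without it 2 of 13 mRNAs passed, MT-CO1 and MT-ND3, with a median log2 fold change of 0.22. Without untreated replicate 2, 3 passed, and with the DESeq2 Wald test 4 passed.

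On addition of AX-0085 to IFN-γ, all 13 mRNAs rose against IFN-γ alone, where 33.7% of all genes passed with a higher level. The median log2 fold change was 0.81, with 0.03 over all genes. MT-ATP8 had 128 and 162 CPM after IFN-γ, against 238 and 297 after both, for a log2 fold change of 0.88 ± 0.17 (adjusted p = 0.0003779). MT-ND5, a proton-pumping subunit of complex I, had 274 and 352 CPM after IFN-γ, against 475 and 690.4 after both, for a log2 fold change of 0.89 ± 0.22 (adjusted p = 0.002646). The smallest rise was that of MT-ND3, with a log2 fold change of 0.45 ± 0.10 (adjusted p = 0.001256). No mRNA passed the 2-fold threshold, where 16.5% of all genes did with a higher level. Both libraries with both agents lay above both IFN-γ libraries for all 13 mRNAs, as they did for 42.6% of all genes. The count of mRNAs past 2-fold rose to 3 without IFN-γ replicate 2 and to 2 without replicate 1 of both agents. This comparison shares the IFN-γ libraries with the comparison against untreated cells.

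**Figure D2:**
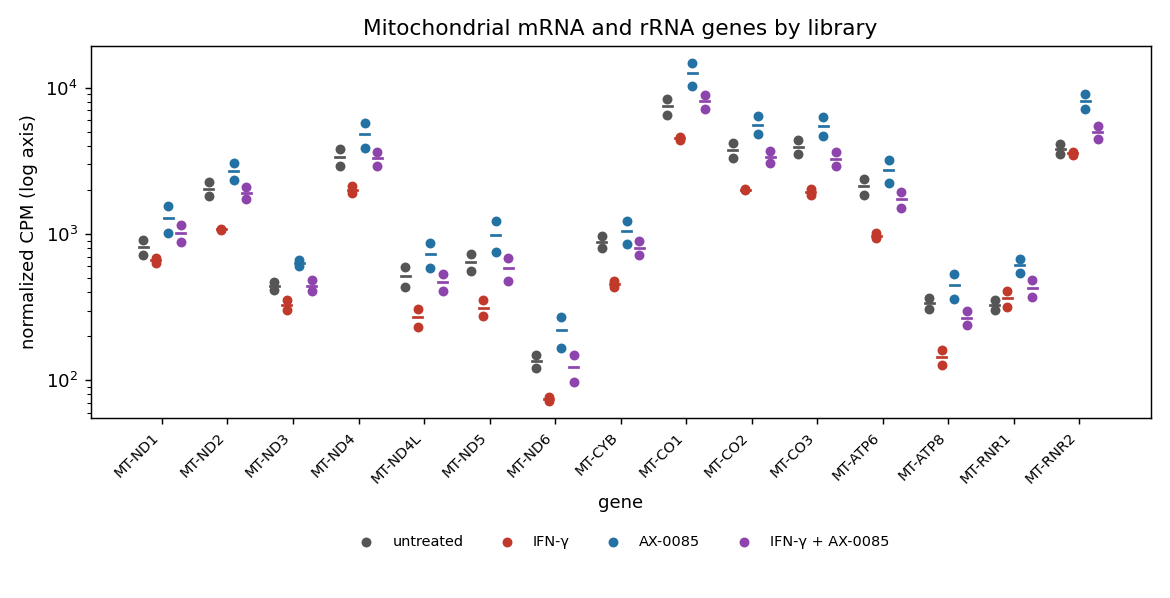
Level of each mitochondrial mRNA and rRNA gene in normalized CPM (vertical log axis) in the 8 libraries, with a dot for each library and a line at the mean of the 2 libraries of a group. The IFN-γ dots lie below the untreated dots for all 13 mRNAs, whereas for MT-RNR1 and MT-RNR2 the 2 groups overlap.

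Cells with both agents did not differ detectably from untreated cells in any mRNA. None of 13 mRNAs passed with edgeR or with DESeq2, and none had an unadjusted edgeR p under 0.05, where 28.8% of all genes passed with a lower level and 28.1% with a higher one. The log2 fold changes ran from -0.34 ± 0.16 for MT-ATP8 to 0.32 ± 0.17 for MT-ND1, with a median of -0.14. The libraries overlapped for every mRNA except MT-ATP8, the only one of the 13 that lay lower in both libraries with both agents, as 39.1% of all genes did. These counts changed with the set of libraries and genes in the fit, since 2 mRNAs passed without untreated replicate 2 and 7 passed with no filter on low counts. A change of the size of these standard errors cannot be seen with 2 libraries in a group.

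Against AX-0085 alone, 11 of 13 mRNAs were lower with both agents (median log2 fold change -0.64, all genes -0.01), where 17.4% of all genes passed with a lower level. MT-ND6 had 167 and 272 CPM with AX-0085 and 97.5 and 148 with both, for a log2 fold change of -0.84 ± 0.20 (adjusted p = 0.005676). Both libraries with both agents lay below both AX-0085 libraries for 11 mRNAs, against 35.6% of all genes. MT-ND1 (-0.33 ± 0.17, adjusted p = 0.1456) and MT-CYB (-0.38 ± 0.15, adjusted p = 0.06296) did not pass. The count fell to 3 without AX-0085 replicate 2 and to 3 without replicate 1 of both agents, and was 7 with DESeq2.

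Within the mRNA pool, a few genes changed their part. MT-ND1 made up 3.07% and 3.09% of the counts of the 13 mRNAs in untreated cells, against 4.38% and 4.58% with IFN-γ. With AX-0085 its part was 3.11% and 3.37%, and with both it was 3.94% and 4.07%, so that both groups with IFN-γ lay above both groups without it. MT-ATP6 made up 8.01% and 7.97% in untreated cells and between 6.48% and 7.02% in the 6 treated libraries. MT-CO1 made up 28.2% and 28.1% in untreated cells and between 30.3% and 32.2% in the treated ones. MT-CYB had its lowest part with AX-0085, at 2.63% and 2.69%, against 2.98% to 3.42% in the other libraries. These parts are ratios within a library and were not tested. Of all 100-base stretches of MT-CO1, 27.9% also occur without mismatch in the nuclear genome, as do 26.1% for MT-ND2, 11.9% for MT-ATP6 and 11% for MT-ND1, but none of MT-CYB, MT-ND3, MT-ND4, MT-ND4L, MT-ND5, MT-ND6 or MT-ATP8. How reads with several matches were handled is not given in the sources used here.

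The rRNAs followed another course than the mRNAs with IFN-γ. MT-RNR2 had 4139 and 3515 CPM in untreated cells, against 3639 and 3494 with IFN-γ, and MT-RNR1 had 355 and 304 CPM against 411 and 316. The groups overlapped for both genes. The log2 fold changes were -0.10 ± 0.12 for MT-RNR2 and 0.14 ± 0.14 for MT-RNR1, and neither passed with edgeR or DESeq2 or had an unadjusted edgeR p under 0.05. Without IFN-γ replicate 2, MT-RNR1 passed with a higher level. Of the MT-RNR1 stretches of 100 bases, 21.2% also occur in the nuclear genome, and of those of MT-RNR2 none do.

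With AX-0085 alone, both rRNAs rose. MT-RNR2 reached 7172 and 9096 CPM, for a log2 fold change of 1.09 ± 0.13 or 2.13-fold (adjusted p = 1.029e-05), and MT-RNR1 reached 542 and 679.6 CPM, for a log2 fold change of 0.89 ± 0.14 (adjusted p = 0.0001844). Past 2-fold with a higher level lay 6.41% of all genes. MT-RNR2 passed the test but was no longer past 2-fold without AX-0085 replicate 2 or without untreated replicate 2. On addition of AX-0085 to IFN-γ, MT-RNR2 rose by 0.48 ± 0.12 on the log2 scale, to 4462 and 5479 CPM, and MT-RNR1 did not pass (0.24 ± 0.14, adjusted p = 0.1575). Cells with both agents lay above untreated cells by 0.38 ± 0.14 for MT-RNR1 (adjusted p = 0.0379) and by 0.38 ± 0.12 for MT-RNR2 (adjusted p = 0.02022) on the log2 scale. DESeq2 passed neither of these last differences, and neither passed without untreated replicate 2 or without replicate 2 of both agents. Both rRNAs were lower with both agents than with AX-0085 alone, by -0.51 ± 0.14 for MT-RNR1 and -0.71 ± 0.13 for MT-RNR2 on the log2 scale, where 17.4% of all genes passed with a lower level. The call for MT-RNR1 was lost with DESeq2, without AX-0085 replicate 2 (-0.33) and without replicate 1 of both agents (-0.30).

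The effect of AX-0085 differed with and without IFN-γ for few mitochondrial genes, and the rRNAs were among them. The interaction, which is the AX-0085 effect with IFN-γ minus that without it, was -0.65 ± 0.20 for MT-RNR1 (adjusted p = 0.01746) and -0.61 ± 0.18 for MT-RNR2 (adjusted p = 0.0116) on the log2 scale. Over all genes, 23.6% passed with a negative interaction and 26.7% with a positive one. Among the 13 mRNAs only MT-CYB passed, with a positive interaction of 0.59 ± 0.21 (adjusted p = 0.03276). With DESeq2 that call was lost, as was the one for MT-RNR1. The remaining 12 mRNAs ranged from -0.08 to 0.48. Without AX-0085 replicate 2, 5 mRNAs passed and neither rRNA did. The call for MT-CYB was lost without replicate 1 of the untreated, IFN-γ or AX-0085 libraries and without replicate 2 of both agents.

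**Figure D3:**
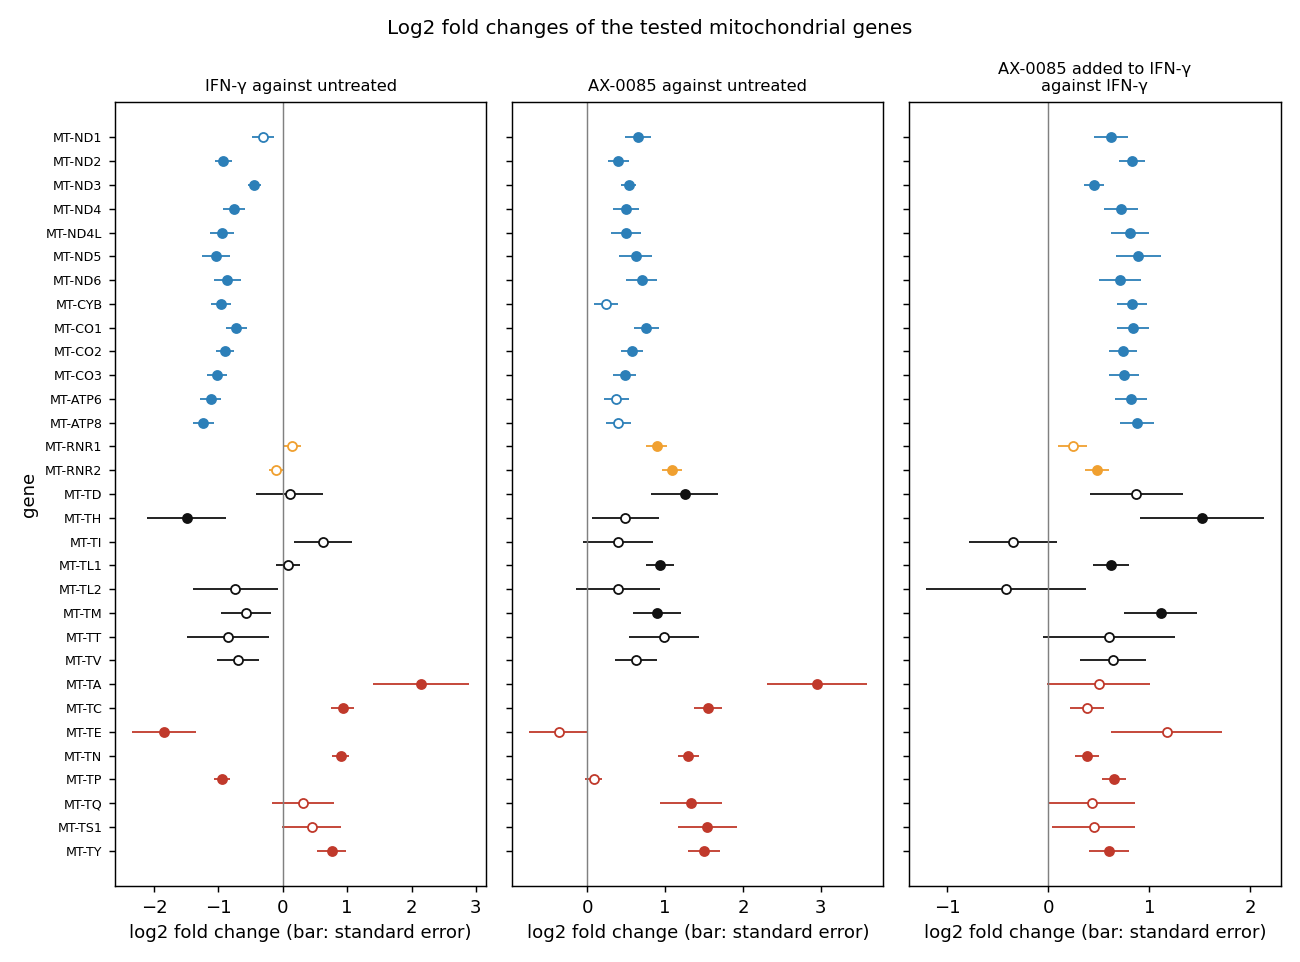
Log2 fold change (axis in log2 units, bars are SE) of the 31 mitochondrial genes tested, for the comparisons among the 4 groups, with filled points where the adjusted p is under 0.05 and colours for mRNAs, rRNAs and tRNAs of each strand. With IFN-γ the mRNAs lie between -1.23 and -0.30, the rRNAs near 0, and light-strand tRNAs from -1.84 to 2.15.

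The tRNA genes gave 0.24% to 0.516% of the mitochondrial counts, and 5 of them, MT-TN, MT-TC, MT-TY, MT-TP and MT-TL1, held 93.2% of the tRNA counts. The genes are 59 to 75 bases long, so that a sequenced fragment can extend into a neighbour, and counts per gene do not tell a mature tRNA from an unprocessed transcript. Of the 22 genes, 16 passed the filter on low counts. The other 6 (MT-TF, MT-TW, MT-TK, MT-TG, MT-TR and MT-TS2) had at most 19 counts in any library and were not tested. The tRNA genes on which the results turn are printed here in the sense of the tRNA, from GRCh38, with the anticodon in capitals. MT-TA (chrM:5587-5655), MT-TN (chrM:5657-5729), MT-TC (chrM:5761-5826) and MT-TY (chrM:5826-5891) lie next to each other on the minus strand, while MT-TP (chrM:15956-16023, minus strand) lies beside the non-coding control region. They carry alanine, asparagine, cysteine, tyrosine and proline.
MT-TA: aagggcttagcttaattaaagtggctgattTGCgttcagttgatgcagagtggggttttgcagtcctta
MT-TN: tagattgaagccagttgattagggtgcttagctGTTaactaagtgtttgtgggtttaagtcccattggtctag
MT-TC: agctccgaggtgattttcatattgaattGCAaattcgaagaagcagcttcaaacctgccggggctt
MT-TY: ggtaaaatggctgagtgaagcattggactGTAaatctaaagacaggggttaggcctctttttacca
MT-TP: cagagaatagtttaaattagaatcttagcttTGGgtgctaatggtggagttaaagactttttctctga
between MT-TN and MT-TC: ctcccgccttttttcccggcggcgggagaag
The last line holds the 31 bases between MT-TN and MT-TC (chrM:5730-5760, minus strand), where the origin of light-strand replication lies, a stem-loop in the DNA. It is shown because the 4 tRNA genes on its sides changed in the same direction.

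Counts of the cluster of light-strand tRNA genes, which may include antisense RNA, rose with IFN-γ while those of the mRNAs fell. MT-TN had 11.7 and 13.9 CPM in untreated cells, against 25.7 and 22 with IFN-γ, for a log2 fold change of 0.90 ± 0.13 (adjusted p = 4.056e-05). MT-TC had 11.8 and 13.9 CPM against 29.6 and 19.8, for a log2 fold change of 0.93 ± 0.18 (adjusted p = 0.0004834). MT-TY had 5.10 and 5.09 CPM against 8.29 and 8.88, for a log2 fold change of 0.76 ± 0.23 (adjusted p = 0.009884). All 3 genes had both IFN-γ libraries above both untreated ones, as 37.8% of all genes did. MT-TA also passed, but on 4 counts in the untreated libraries and 15 with IFN-γ, a ratio of 4.69 with an exact 95% counting interval of 1.49 to 19.4. Over all genes, 32.1% passed with a higher level, and 10.3% were also past 2-fold, as MT-TA was by its fitted change of 2.15 ± 0.75 on the log2 scale.

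Other light-strand tRNA genes fell with IFN-γ. MT-TP had 38.6 and 34.3 CPM in untreated cells, against 21.1 and 17.1 with IFN-γ, for a log2 fold change of -0.94 ± 0.12 (adjusted p = 9.098e-06). MT-TE, the glutamate tRNA gene next to MT-ND6, fell from 0.761 and 0.733 CPM to 0.211 and 0.201, on 4 and 5 counts in the IFN-γ libraries (log2 fold change -1.84 ± 0.50, adjusted p = 0.005112). Of the 8 light-strand tRNA genes, 4 thus rose and 2 fell, where 32.1% of all genes passed with a higher level and 36.0% with a lower one. The 4 include MT-TA with its few counts, whose log2 fold change ranged from 1.49 to 3.20 when single libraries were left out. MT-TQ (0.32 ± 0.48) and MT-TS1 (0.45 ± 0.46) did not pass. Of the 8 heavy-strand tRNA genes tested, only MT-TH passed, with a lower level on 5 counts over the IFN-γ libraries, and its ratio was 0.347 with an exact 95% counting interval of 0.101 to 0.971. MT-TH passed in 1 of the 8 fits that left out a library. MT-TL1, a leucine tRNA gene between MT-RNR2 and MT-ND1, had 7.78 and 5.95 CPM in untreated cells, against 6.97 and 7.64 with IFN-γ and did not pass (0.08 ± 0.19).

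**Figure D4:**
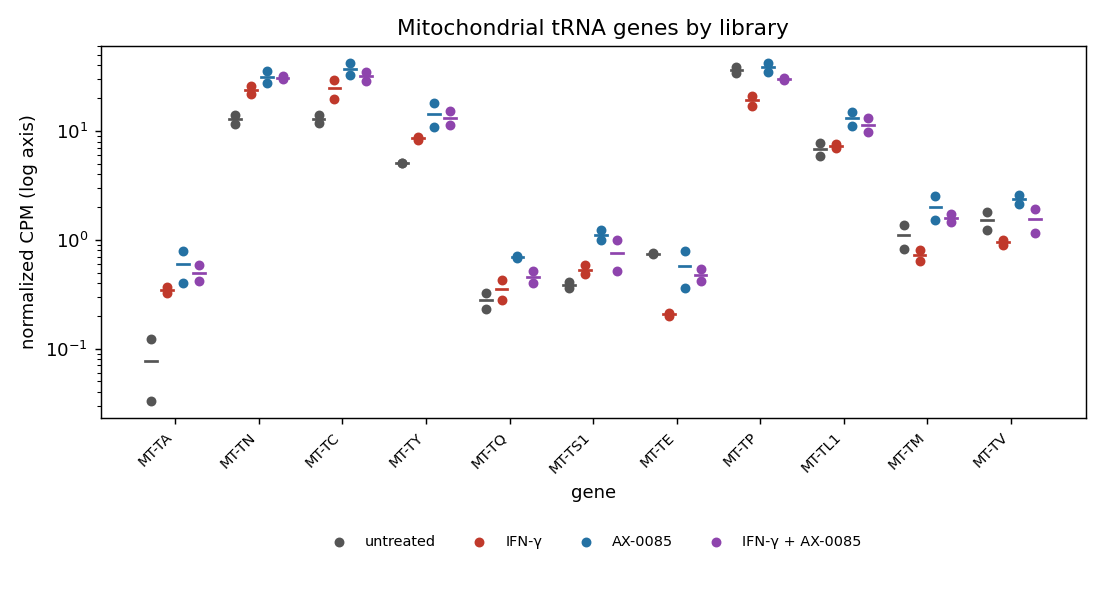
Level of tested tRNA genes in normalized CPM (vertical log axis) in the 8 libraries, with a dot for each library and a line at the group mean. MT-TD, MT-TH, MT-TI, MT-TL2 and MT-TT were tested but are not shown. MT-TN, MT-TC and MT-TY have their untreated dots lowest, whereas MT-TP has its IFN-γ dots lowest, at 21.1 and 17.1 CPM.

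With AX-0085 alone, 9 of the 16 tRNA genes rose, where 26.7% of all genes did, and none fell. Past 2-fold lay 7 of them, where 6.41% of all genes did. With DESeq2, 6 passed and 5 were past 2-fold, as MT-TQ, MT-TD and MT-TM no longer passed. MT-TC reached 32.7 and 42.3 CPM, for a log2 fold change of 1.55 ± 0.18 (adjusted p = 8.107e-06), MT-TN reached 35.3 and 27.5 CPM (1.30 ± 0.13) and MT-TY 10.9 and 17.9 CPM (1.5 ± 0.21). MT-TS1 (1.54 ± 0.38), MT-TQ (1.33 ± 0.40) and MT-TD (1.25 ± 0.43), which carry serine, glutamine and aspartate, also passed 2-fold, at levels of at most 1.24 CPM. MT-TA had 31 counts against 4 in untreated cells, a ratio of 8.22 (exact 95% counting interval 2.90 to 32). MT-TL1 rose to 11.2 and 15.1 CPM (0.93 ± 0.18) and MT-TM, a methionine tRNA gene, by 0.90 ± 0.31 on the log2 scale. MT-TP did not pass, at 34.9 and 42.3 CPM (0.08 ± 0.11, adjusted p = 0.5676), nor did MT-TE (-0.37 ± 0.38). MT-TQ and MT-TD passed in 5 of the 8 fits that left out a library.

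The cluster stayed above the untreated level with both agents. MT-TN had 31.9 and 30 CPM, 2.44-fold above untreated cells (log2 fold change 1.28 ± 0.13, adjusted p = 1.956e-06). MT-TC had 28.9 and 34.9 CPM (1.31 ± 0.18) and MT-TY 11.3 and 15.2 CPM (1.36 ± 0.21). Together with MT-TA, which had 26 counts against 4 (ratio 6.65, exact 95% counting interval 2.31 to 26.2), these were the 4 tRNA genes past 2-fold, where 7.51% of all genes were past 2-fold with a higher level. MT-TL1 rose by 0.71 ± 0.18 and MT-TP fell by 0.29 ± 0.11 on the log2 scale (adjusted p = 0.03876). The call for MT-TP was lost with DESeq2.

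Adding AX-0085 to IFN-γ raised 6 of the 16 tRNA genes over IFN-γ alone, a share close to the 33.7% of all genes that passed with a higher level. MT-TP went from 21.1 and 17.1 CPM to 29.3 and 30.5 (log2 fold change 0.65 ± 0.12, adjusted p = 0.0003012), as did MT-TN (0.38 ± 0.12), MT-TY (0.60 ± 0.20), MT-TL1 (0.62 ± 0.18) and MT-TM (1.11 ± 0.36) with a higher level. MT-TH passed on 18 against 5 counts (ratio 2.95, exact 95% counting interval 1.05 to 10.2). Of the 8 fits that left out a library, MT-TP passed in 8, MT-TL1 in 7, MT-TN and MT-TM in 6, MT-TY in 5 and MT-TH in 1, and MT-TH did not pass with DESeq2. Against AX-0085 alone, 1 of the 16, MT-TP, passed with a lower level with both agents (-0.37 ± 0.11, adjusted p = 0.02033), where 17.4% of all genes did. That call was lost without AX-0085 replicate 2 (-0.22) and without either library with both agents (-0.31 and -0.40). The interaction was negative for MT-TC (-1.17 ± 0.24, adjusted p = 0.001393), MT-TN (-0.92 ± 0.18, adjusted p = 0.0007939), MT-TY (-0.90 ± 0.30, adjusted p = 0.02301) and MT-TA (-2.45 ± 0.87, adjusted p = 0.03201), and positive for MT-TP (0.57 ± 0.16, adjusted p = 0.009877). Of these, MT-TA and MT-TC had an interaction past 2-fold, as 6.46% of all genes did on the negative side. The difference made by AX-0085 was thus smaller for the 4 cluster genes in cells with IFN-γ, where MT-TA and MT-TC did not pass on its addition. The remaining tested tRNA genes, MT-TI, MT-TV, MT-TL2 and MT-TT, which carry isoleucine, valine, leucine and threonine, passed in none of the comparisons.

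Of 76 nuclear genes that maintain, transcribe, process and translate the mitochondrial genome, 67 were expressed enough to be tested. With IFN-γ, 38 passed with a higher level and 18 with a lower one (median log2 fold change 0.25, all genes -0.06), where 32.1% of all genes were higher and 36.0% lower. With AX-0085 alone, 7 rose and 38 fell (median -0.32, all genes 0.01), where 26.6% of all genes fell. On addition of AX-0085 to IFN-γ, 10 rose and 40 fell (median -0.38, all genes 0.03), where 32.8% of all genes fell. Of the 19 tested genes of RNA processing, stability and decay, 14 rose and 3 fell with IFN-γ, 1 rose and 14 fell with AX-0085, and 1 rose and 17 fell on addition of AX-0085 to IFN-γ.

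PNPT1 and SUPV3L1, 2 of these 19 genes, were higher with IFN-γ, and other genes that degrade mitochondrial RNA are not described here. PNPT1, the exoribonuclease, had 109 and 118 CPM in untreated cells, against 175 and 190.5 with IFN-γ, for a log2 fold change of 0.68 ± 0.06, and it fell to 66.9 and 67.8 CPM with AX-0085 alone (-0.76 ± 0.07) and to 82.5 and 77.9 CPM with both (-1.19 ± 0.06 against IFN-γ). SUPV3L1, its helicase partner, had 40.4 and 42.9 CPM in untreated cells, against 97.5 and 91.4 after IFN-γ (1.18 ± 0.07), and stood at 43.3 and 46.5 CPM after both (-1.07 ± 0.07 against IFN-γ). The IFN-γ libraries lay above all others for both genes. Over all genes, 37.8% had both IFN-γ libraries above both untreated ones. With AX-0085 alone, SUPV3L1 had 37.5 and 36.6 CPM and did not pass (-0.17 ± 0.07, adjusted p = 0.07603). LRPPRC, which stabilizes mitochondrial mRNAs, rose with IFN-γ (0.42 ± 0.06) and with AX-0085 (0.38 ± 0.06), while its partner SLIRP rose with IFN-γ (0.47 ± 0.08) and fell with AX-0085 (-0.73 ± 0.08). On addition of AX-0085 to IFN-γ, LRPPRC (-0.16 ± 0.06, adjusted p = 0.02136) and SLIRP (-0.68 ± 0.08) both fell. With both agents, LRPPRC remained above untreated cells (0.25 ± 0.06), whereas SLIRP lay below them (-0.21 ± 0.08). Whether the changes of these nuclear genes bear on the mitochondrial mRNA levels was not tested.

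Transcription factors of the organelle moved in different directions. TFAM, which packages the genome and starts transcription, had 109 and 94.2 CPM in untreated cells, against 86.2 and 113 with IFN-γ and did not pass (-0.03 ± 0.10), but it fell with AX-0085 (-0.47 ± 0.11) and with AX-0085 added to IFN-γ (-0.70 ± 0.11). POLRMT fell with IFN-γ (-0.42 ± 0.08) and with AX-0085 (-0.38 ± 0.08) and rose on addition of AX-0085 to IFN-γ (0.55 ± 0.08). TFB2M rose with IFN-γ (0.88 ± 0.07), fell with AX-0085 (-0.33 ± 0.07), and fell on addition of AX-0085 to IFN-γ (-0.85 ± 0.07). MTERF2, a member of the mitochondrial termination factor family, fell with IFN-γ to 0.845 and 1.13 CPM from 2.51 and 3.34 (-1.53 ± 0.24).

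The largest change of this group was that of TYMP, the thymidine phosphorylase whose loss destabilizes mitochondrial DNA. It had 5.82 and 7.33 CPM in untreated cells, against 128 and 115 with IFN-γ, 18.6-fold higher (log2 fold change 4.22 ± 0.11), and 18.9 and 19.9 CPM with both. Of its exon bases, 19% lie in exons of other genes, and how reads there were counted is not settled. GABPB1, a subunit of the nuclear respiratory factor GABP, rose with IFN-γ from 34.0 and 30 to 90.1 and 90.4 CPM (1.49 ± 0.08) and had 26.5 and 27.1 CPM with both, below both untreated libraries (-0.26 ± 0.09, adjusted p = 0.02183). The latter call held in 5 of the 8 fits that left out a library. SLC25A4, the ADP/ATP carrier of the inner membrane, fell with IFN-γ to 8.87 and 9.21 CPM from 22.8 and 24.7 (-1.39 ± 0.09). TRMU, a tRNA-modifying enzyme, fell with AX-0085 to 16.1 and 14.5 CPM from 34.3 and 36.7 (-1.22 ± 0.09). MRM1, an rRNA methyltransferase, had the second largest positive interaction of the group past 2-fold (1.24 ± 0.11), since it fell with AX-0085 alone (-0.51 ± 0.08) and rose on addition of AX-0085 to IFN-γ (0.74 ± 0.08). PPARGC1A, a coactivator that promotes mitochondrial biogenesis, was hardly expressed, with 1 and 5 counts in the IFN-γ libraries and 8 to 29 in the others, and it was higher with AX-0085 than in untreated cells (1.54 ± 0.38, adjusted p = 0.004235).

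**Figure D5:**
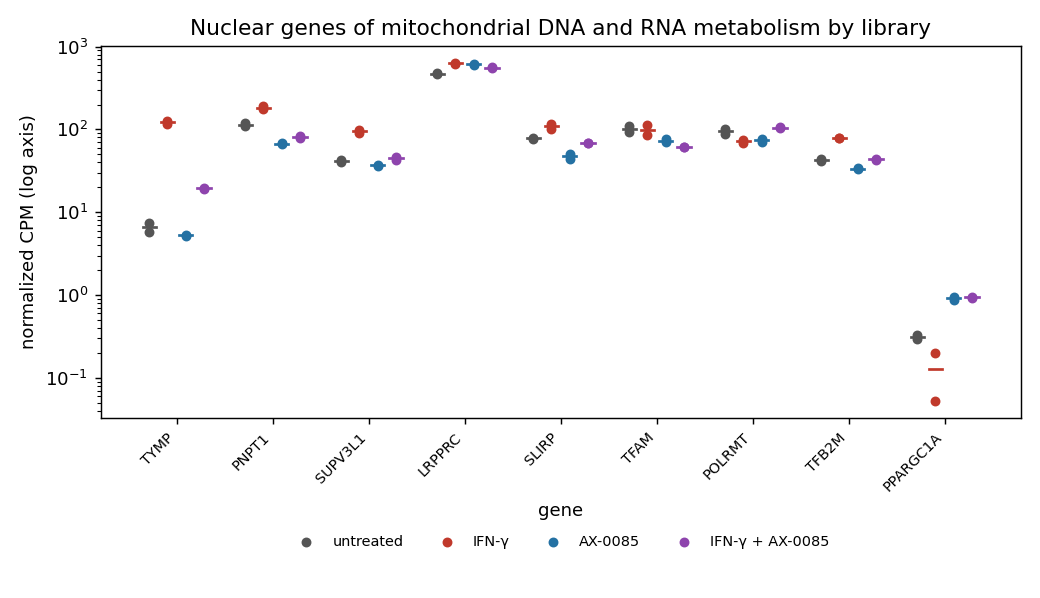
Level of nuclear genes of mitochondrial DNA and RNA metabolism in normalized CPM (vertical log axis) in the 8 libraries, with a dot for each library and a line at the group mean. PNPT1 and SUPV3L1 have their highest dots with IFN-γ, at 175 and 190.5 and at 97.5 and 91.4 CPM, and TYMP rises from under 10 CPM to 128 and 115.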

How the data were processed

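The authors sequenced poly(A)-selected RNA from 8 libraries and deposited raw gene counts, which are whole numbers without normalization. Per the submitters' processing notes, reads were converted with bcl2fastq 2.20, trimmed with Trim Galore 0.6.7, mapped to GRCh38 with STAR 2.7.9a and counted with featureCounts. The annotation release, strand setting and handling of multi-mapped reads are not given in the sources used here. Symbols came from GENCODE 44, which held 60463 of the 60664 gene identifiers, and sequences came from GRCh38. Genes were filtered with filterByExpr, which kept 15066 of the 26065 genes with a count, scaled by TMM (factors 0.916 to 1.04) and tested with the quasi-likelihood test of edgeR 4.0.16 in R 4.3.3, in 1 model of 4 groups. P-values were adjusted by Benjamini-Hochberg over all genes tested, and passing meant an adjusted p under 0.05. Calls at 2-fold used the thresholds of the study. The library totals set the precision, and counting intervals cover counting error only.

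Alternatives included the Wald test of DESeq2 1.42.0, RLE size factors, scaling to library size, normalization without mitochondrial genes, no filter, at least 10 counts in every library, fits with the compared groups only, calls without a fold threshold, protein-coding genes alone for the share of counts, a block for the replicate number, and each library left out in turn. The count of mRNAs that pass under each alternative was added after seeing the data. On simulated counts of IFN-γ against untreated cells (15066 genes, 200 changed), edgeR and DESeq2 each recovered 100% of the changed genes, with 2 and 0 false calls. The planted changes were all past 2-fold, in genes without low counts, and the same spread between libraries was planted for all genes. Most mitochondrial mRNA changes were under 2-fold, so that this recovery does not give the power for them. The members and gene lists were chosen with earlier results of these data known. Named were all mitochondrial genes that passed the filter, 8 nuclear genes (TFAM, POLRMT, TFB2M, LRPPRC, SLIRP, PNPT1, PPARGC1A and TYMP), and in each comparison the 2 nuclear list genes with the largest change in each direction past 2-fold. SUPV3L1 was named after its values were seen.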

Additional observations from a re-analysis of the deposited data

Results flagged for a closer look

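The effect of AX-0085 differed between cells with and without IFN-γ, by a test of the interaction, for 8 of the 31 mitochondrial genes tested, 2 with a positive and 6 with a negative difference. Over all genes 26.7% passed with a positive difference and 23.6% with a negative one, so that the share among the mitochondrial genes is below that of all genes. The difference, in log2 units, was 0.59 for MT-CYB and 0.57 for MT-TP, whose change with AX-0085 was more positive in cells with IFN-γ. It was -0.65 for MT-RNR1, -0.61 for MT-RNR2, -2.45 for MT-TA, -1.17 for MT-TC, -0.92 for MT-TN and -0.90 for MT-TY, whose change with AX-0085 was smaller in cells with IFN-γ. MT-TC and MT-TN passed in all 8 fits that left out a library, MT-TP in 7, MT-RNR2 in 6, MT-TY in 5, MT-CYB and MT-RNR1 in 4 and MT-TA in 3.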

How the results depend on the processing

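Of 2733 values of single genes under the alternatives, 2519 kept their direction and their side of the threshold, 131 no longer passed, 83 newly passed and 0 reversed, while 93 values that never passed changed sign. The number of mRNAs past 2-fold with IFN-γ was 2 with RLE size factors, 2 with DESeq2 and 8 with library size alone, and with AX-0085 added to IFN-γ it was 1 with library size alone. With no fold threshold, by the adjusted p alone, the number called was 12 with IFN-γ, 10 with AX-0085, 13 with AX-0085 added to IFN-γ, 11 for both against AX-0085 and 1 for the interaction. The number that passed with DESeq2 was 4 with AX-0085, 7 for both against AX-0085 and 0 for the interaction. For both against untreated it was 7 with no filter on low counts and 2 with only the groups compared, and for the interaction it was 8 with no filter and 3 with library size alone. Library size alone moved the median of all genes with IFN-γ from -0.06 to -0.18. The share of counts of protein-coding genes alone was 1.39% with IFN-γ and 2.59% with both. Leaving out each library in turn, the numbers past 2-fold ranged from 1 to 8 with IFN-γ, 0 to 1 with AX-0085, 0 to 3 with AX-0085 added and 0 to 2 for both against AX-0085. The numbers that passed ranged from 2 to 13 with AX-0085, 3 to 13 for both against AX-0085, 0 to 2 for both against untreated and 0 to 5 for the interaction. Median log2 fold changes ranged from -1.06 to -0.68 with IFN-γ, 0.22 to 0.75 with AX-0085, 0.60 to 0.97 with AX-0085 added, -0.88 to -0.36 for both against AX-0085, -0.30 to 0.11 for both against untreated and -0.03 to 0.52 for the interaction. The cause of these changes was not tested. Replicate numbers did not pair the libraries (correlations of -0.0738 to 0.0444 across groups), and with the replicate number as a block 1 mRNA passed for both against untreated and 2 for the interaction. Depth limits the tRNA genes, since 3 counts correspond to 0.0959 to 0.158 CPM, and 6 of 22 were not tested.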
